A study of Homo sapiens with 24 samples.

Results

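The 36 genes described here encode acetyltransferases, deacetylases and bromodomain readers other than KAT2A and KAT2B, most of which write, erase or read lysine acetylation. They were taken from the count table by gene symbol and make up 36 of its 26364 genes. The set was chosen with earlier results of these data known. They hold 12 genes grouped as acetyltransferases (KAT5, KAT6A, KAT6B, KAT7, KAT8, EP300, CREBBP, HAT1, NAT10, NCOA1, NCOA3 and TAF1), 11 zinc-dependent deacetylases (HDAC1 to HDAC11), 7 sirtuins (SIRT1 to SIRT7) and 6 bromodomain readers (BRD2, BRD3, BRD7, BRD9, BRPF1 and BPTF). All 36 genes had enough reads to be tested.

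RNA was sequenced from nTERT-1 cells, a keratinocyte line immortalised with telomerase that can be driven to differentiate in culture. The genotypes were KAT2A_KD, KAT2B_KD and KAT2AB_KD, that is knockdown of KAT2A, of KAT2B and of both, and NT, which served here as the control. Each genotype was harvested at 3 stages, Subconfluent, Confluent and Differentiated, the last at day 4 in a deposited sample table, with 2 libraries in each of the 12 groups and 24 libraries in all. Replicates 1 and 2 here are those numbered 2 and 3 in that table. Every group is of the same single line and carries the same label of keratinocyte differentiation as its treatment. The meaning of NT, the means of knockdown and the origin of the paired libraries (separate cultures or not) are not given in the labels, so the p-values here reflect the spread between libraries, which may be purely technical.

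Lysine acetylation of histones loosens chromatin and marks active promoters and enhancers. Acetyltransferases add the mark from acetyl-CoA, the zinc-dependent HDACs and the NAD-dependent sirtuins remove it, and bromodomain proteins bind it and bring in transcription or remodelling complexes. In epidermis, HDAC1 and HDAC2 are known to be needed for the progenitor layer, and the balance of acetylation and deacetylation is known to affect when keratinocytes leave the cell cycle and cornify.

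Library totals ran between 8010178 and 16054003 counts, and the replicates of a group correlated at Pearson's r of 0.97 to 0.986 over genes. KAT2A averaged 2.54 log2 units lower in KAT2A_KD and 2.04 lower in KAT2AB_KD than in NT over the 3 stages, and KAT2B averaged 2.62 lower in KAT2B_KD and 1.53 lower in KAT2AB_KD (adjusted p 3.5e-05, 4.53e-05, 0.000177 and 0.0033 by edgeR's test). At the Differentiated stage alone KAT2A was not called in KAT2A_KD or KAT2AB_KD (adjusted p 0.139 and 0.144). NT held 11.4 CPM of KAT2A there, against 37.4 CPM at the Confluent stage. KAT2B was not called in KAT2B_KD or KAT2AB_KD at the Subconfluent (0.0689 and 0.117) or Confluent stage (0.22 and 0.419). NT held 4.19 CPM of KAT2B at the Confluent stage, against 42.6 CPM at the Differentiated stage. The KAT2AB_KD replicates were uneven, with KAT2A at 7.35 and 1.67 CPM at the Confluent and 1.98 and 6.85 CPM at the Differentiated stage, and KAT2B at 2.96 and 0.902 CPM and at 5.85 and 18.9 CPM at the same stages. The 6 keratinocyte markers summed to between 15376 and 49506 CPM in every library, and the 6 markers of differentiated keratinocytes summed to between 13945 and 43053 CPM at the Differentiated stage, against 400 to 913 CPM before it. Summed proliferation markers lay between 65.7 and 167 CPM in Differentiated libraries and between 1587 and 2082 CPM in the others. The 14 interferon-stimulated markers summed to 1349 and 1524 CPM in the NT Confluent libraries and to at most 709 CPM in any other library. Differentiated libraries also held more of the summed fibroblast markers (31.9 to 53.7 CPM, against 1.44 to 7.71 CPM before), immune markers (25.6 to 61.3 CPM, against 14.7 to 23.6 CPM) and melanocyte markers (3.05 to 8.39 CPM, against 0.314 to 1.94 CPM), without overlap. Most of these reads were of COL1A1, CD68 and PMEL, with CD3E and TYR at 0 counts in all libraries. CPM, the depth-normalised read counts of a library, were scaled by TMM factors that put libraries of unlike composition on 1 scale.

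Per kilobase of transcript, BRD2, a reader of the BET family that binds acetylated histone H4, stood highest of the 36 genes at every stage, with a median of 103 CPM per kb at the Subconfluent, 106 at the Confluent and 103 at the Differentiated stage. HDAC1, HDAC3 and SIRT2 came next at all 3 stages in differing order. SIRT2, a mainly cytoplasmic sirtuin that deacetylates tubulin, had 20.1 CPM per kb at the Subconfluent stage, below HDAC1 and HDAC3, and 45.8 at the Differentiated stage, above both. SIRT4, a mitochondrial sirtuin, was last before differentiation with 0.181 and 0.144 CPM per kb, and HDAC9 was last at the Differentiated stage with 0.522. These levels use 1 transcript length per gene, the longest protein-coding one in GENCODE, so the order between close neighbours depends on that choice.

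**Figure D1:**
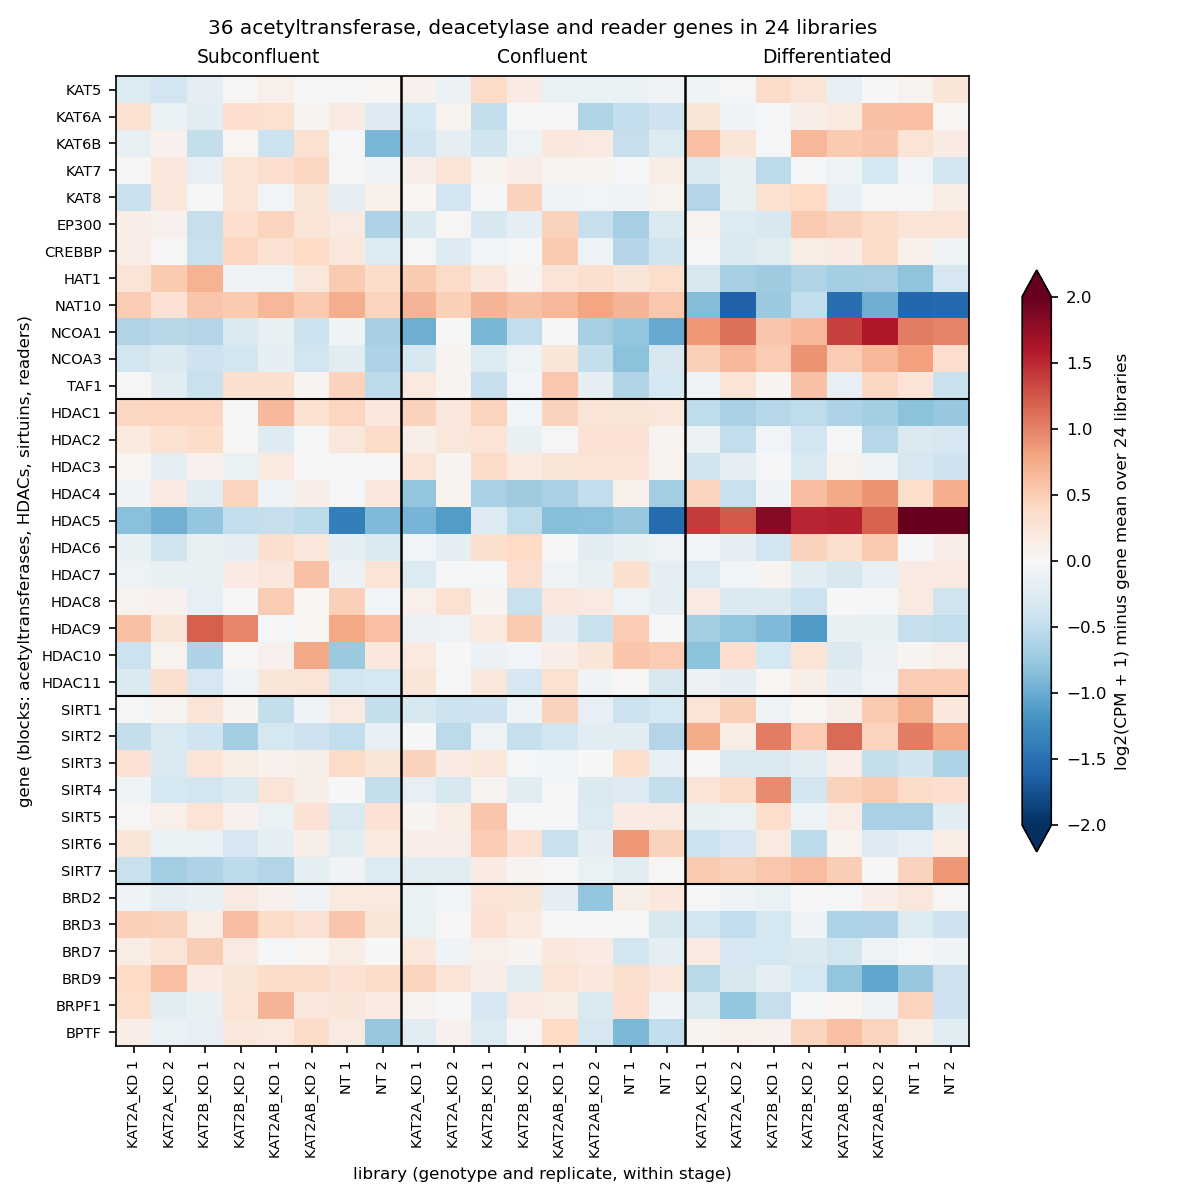
Heat map of the 36 genes (rows, in blocks of acetyltransferases, HDACs, sirtuins and readers) in the 24 libraries (columns, grouped by stage and then by genotype). Colour gives log2(CPM + 1) minus the gene's mean over the 24 libraries. The step falls between Confluent and Differentiated libraries, with HDAC5, NCOA1, NCOA3 and SIRT2 higher and NAT10, HAT1 and HDAC1 lower in all 8 Differentiated libraries than in all 8 Confluent ones.

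Averaged over the 4 genotypes, 12 of the 36 genes were higher and 11 were lower in Differentiated than in Confluent cultures, at an adjusted p under 0.05 by edgeR's quasi-likelihood test with Benjamini-Hochberg adjustment over 15757 genes. The 23 genes are 63.9% of the set, beside 69.7% of all genes tested (34.3% higher and 35.4% lower), so the share called is no result about the set. The median log2 fold change was 0.02 over the 36 genes and -0.02 over all genes. For 7 genes the 8 Differentiated libraries did not overlap the 8 Confluent libraries, which was so for 32.5% of all genes tested, 15.8% higher and 16.7% lower. They were NCOA1, NCOA3, HDAC5 and SIRT2, which rose, and NAT10, HAT1 and HDAC1, which fell. In these bulk libraries fewer cells of a type and less RNA per cell cannot be told apart. The proliferation markers fell and the fibroblast, immune and melanocyte markers were higher in the same Differentiated libraries, and their part in these changes was not tested.

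**Figure D2:**
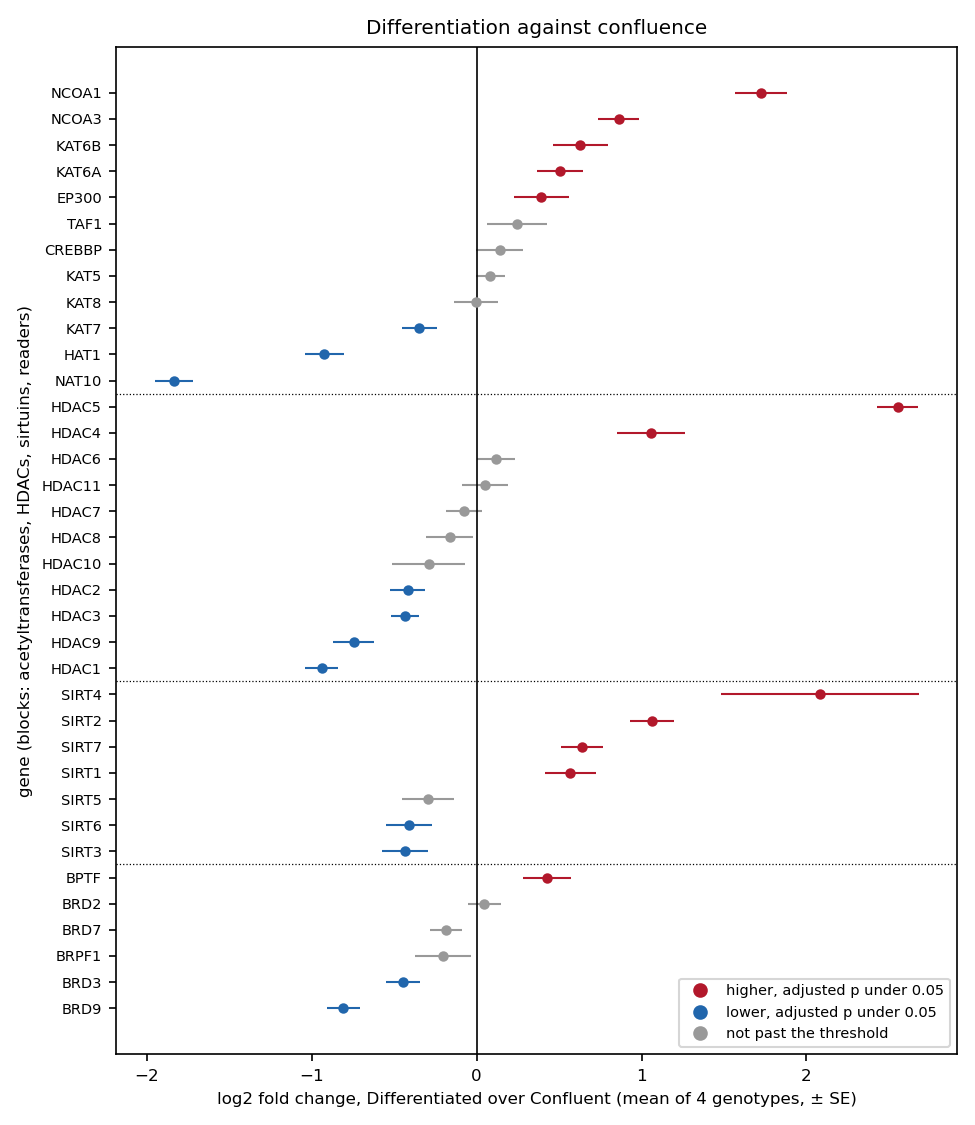
Log2 fold change of each of the 36 genes, Differentiated over Confluent, averaged over 4 genotypes (points) with its standard error (bars), ordered within each role. Red and blue points passed an adjusted p under 0.05. HDAC5 lies farthest to the right at 2.55 and NAT10 farthest to the left at -1.84, and each role holds genes on both sides of 0.

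The promoters of 4 of these 7 genes are shown, those with the largest rises and falls for which at least 200 bases lie ahead of every annotated transcript start. They are up to 250 bases upstream of the RefSeq start in GRCh38.p14, whereas the counts were made on hg19. Promoters were found by symbol for 31 of the 36 genes, not for KAT6A, KAT8, HDAC5, SIRT7 and BPTF. Capitals mark matches on either strand to 6 motifs that were searched: the E-box CACGTG, the GC box GGGCGG, the CCAAT box, the AP-1 site TGANTCA, the CRE core TGACGT and the GRHL site AACCNGTT. Overlapping matches run together.
NCOA1, chr2:24491004-24491253, plus strand: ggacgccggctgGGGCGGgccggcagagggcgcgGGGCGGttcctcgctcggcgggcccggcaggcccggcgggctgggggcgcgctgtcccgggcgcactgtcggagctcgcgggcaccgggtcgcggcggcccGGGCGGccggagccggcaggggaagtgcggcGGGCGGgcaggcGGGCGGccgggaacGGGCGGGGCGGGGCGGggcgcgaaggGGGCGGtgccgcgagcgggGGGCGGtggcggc
NCOA3, chr20:47501637-47501886, plus strand: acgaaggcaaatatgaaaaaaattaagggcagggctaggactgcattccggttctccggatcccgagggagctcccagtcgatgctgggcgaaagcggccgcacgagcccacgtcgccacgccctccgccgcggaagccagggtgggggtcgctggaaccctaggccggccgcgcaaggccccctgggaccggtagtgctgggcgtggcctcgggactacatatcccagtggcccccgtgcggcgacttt
NAT10, chr11:34105379-34105601, plus strand: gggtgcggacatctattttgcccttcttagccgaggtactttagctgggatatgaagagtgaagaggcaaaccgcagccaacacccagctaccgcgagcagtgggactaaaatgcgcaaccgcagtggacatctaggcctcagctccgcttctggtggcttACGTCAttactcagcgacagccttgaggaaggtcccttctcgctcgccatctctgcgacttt
HDAC1, chr1:32291833-32292082, plus strand: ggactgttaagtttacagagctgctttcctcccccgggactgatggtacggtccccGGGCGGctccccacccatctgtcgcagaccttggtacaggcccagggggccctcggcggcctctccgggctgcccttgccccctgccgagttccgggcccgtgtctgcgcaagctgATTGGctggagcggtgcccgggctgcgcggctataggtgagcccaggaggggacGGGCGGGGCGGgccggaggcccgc

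NCOA1 and NCOA3 rose together yet their upstream bases look unlike each other, with 10 GC boxes and a GC content of 87.2% for NCOA1 and none of the 6 motifs and 66.4% for NCOA3. The NAT10 window held 1 CRE core, and the HDAC1 window held 3 GC boxes and 1 CCAAT box. The NAT10 window shown stops at 223 bases, before the first annotated transcript start, and its full 250 bases also held 1 E-box. Over the 31 promoters, each taken at 250 bases, 18 held a GC box (58.1%), beside 42.2% of all 27305 promoters in the table. The E-box was in 4 (12.9%, beside 6.46%), the CCAAT box in 5 (16.1%, beside 33%), the CRE core in 6 (19.4%, beside 7.42%), and the AP-1 and GRHL sites in 0, beside 6.57% and 1.5%. The 31 windows include those of KAT5, KAT6B, EP300, HDAC2, HDAC7, HDAC8, HDAC11 and BRD3, which lie wholly downstream of an annotated transcript start. Of these, HDAC11 held 5 GC boxes, BRD3 held 6, KAT5 held 1 E-box and 1 CRE core, and the rest held none of the 6 motifs. A match is a run of letters, not a shown site of binding.

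Among the 12 acetyltransferases, 5 rose and 3 fell with differentiation. NCOA1 and NCOA3 are steroid receptor coactivators that bring EP300 and CREBBP to nuclear receptors and have acetyltransferase activity of their own. NCOA1 had a lowest, median and highest value of 18.1, 25.2 and 38.3 CPM in the 8 Differentiated libraries, against 5.48, 6.91 and 11.9 CPM in the 8 Confluent ones. The groups were apart by more than their spread, with a log2 fold change of 1.73 (SE 0.156, adjusted p 5.65e-09). NCOA3, already abundant before, reached 86.7, 103 and 129 CPM in Differentiated libraries, against 38.3, 55.6 and 81.0 CPM in Confluent ones. Its log2 fold change was 0.86 (SE 0.123, adjusted p 3.6e-06), and the highest Confluent library, KAT2AB_KD replicate 1, came close to the lowest Differentiated one.

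KAT6A and KAT6B, the paralogous MYST enzymes that acetylate histone H3 in complexes with BRPF1, rose by 0.51 and 0.63 log2 units (SE 0.14 and 0.167, adjusted p 0.00334 and 0.00248). KAT6B averaged 11.8 CPM in Differentiated and 7.76 CPM in Confluent libraries, and KAT6A averaged 40.7 and 28.6 CPM. Both pairs of groups overlapped, at 32.6 to 53.1 CPM in Differentiated and 22.3 to 36.3 CPM in Confluent libraries for KAT6A. EP300, the broad coactivator that acetylates H3K27, averaged 34.7 CPM in Differentiated and 26.5 CPM in Confluent libraries (log2 0.39, SE 0.166, adjusted p 0.0419). Its call was lost in 12 of 24 alternatives, 11 of which left out a single library, with adjusted p values between 0.0513 and 0.14, the highest without KAT2B_KD Differentiated replicate 2. With NT left out of the average but kept in the fit, an alternative chosen after seeing the data, the adjusted p was 0.224. Its paralog CREBBP averaged 15.7 and 14.4 CPM in the same stages (log2 0.14, adjusted p 0.386).

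NAT10, which acetylates cytidine in RNA and works in ribosome maturation in the nucleolus, fell furthest of the 36 genes. It had 13.4, 17.9 and 30.4 CPM (lowest, median and highest) in Differentiated libraries, against 60.5, 69.0 and 75 CPM in Confluent ones, with a log2 fold change of -1.84 (SE 0.115, adjusted p 2.16e-11). HAT1, which acetylates newly made histone H4 before its deposition, had 13.9, 15.6 and 20.1 CPM in Differentiated libraries, against 26.3, 31.1 and 36.6 CPM in Confluent ones (log2 -0.92, SE 0.119, adjusted p 9.29e-07). For both genes the lowest Confluent library stood above the highest Differentiated library. KAT7, the MYST enzyme that acetylates H3K14 at replication origins, fell less, by 0.35 log2 units (SE 0.106, adjusted p 0.00649), with overlapping libraries. KAT5, KAT8, CREBBP and TAF1 did not pass, with log2 fold changes between -0.01 and 0.25. By the transcript models, 32.2% of the exon bases of KAT5 are shared with RNASEH2C on the opposite strand, and its counts are uncertain because the strand setting is not given in the sources used here.

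Among the 11 zinc-dependent deacetylases, 2 rose and 4 fell. HDAC5 and HDAC4 are class IIa enzymes, which shuttle between nucleus and cytoplasm, bind MEF2 and have little catalytic activity of their own. HDAC5 had 62.5, 80.0 and 131 CPM in Differentiated libraries, against 8.61, 14.7 and 22.3 CPM in Confluent ones. Every Differentiated library exceeded every Confluent library, and the log2 fold change of 2.55 was the largest of the 36 genes (SE 0.123, adjusted p 4.09e-13). HDAC4 averaged 8.28 CPM in Differentiated and 3.95 CPM in Confluent libraries (log2 1.06, SE 0.207, adjusted p 0.000141), with overlap at the low end, where the lowest Differentiated library had 3.95 CPM. The other class IIa genes did not rise. HDAC7 averaged 26.1 and 27.5 CPM (log2 -0.08, adjusted p 0.541), and HDAC9 averaged 5.17 and 8.58 CPM in Differentiated and Confluent libraries and fell by 0.75 log2 units (SE 0.126, adjusted p 2.61e-05).

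The class I enzymes of the nuclear corepressor complexes, HDAC1, HDAC2 and HDAC3, fell together. HDAC1, the catalytic subunit of NuRD, Sin3 and CoREST with its paralog HDAC2, had 68.9, 78.7 and 85.7 CPM in Differentiated libraries, against 119, 146 and 170 CPM in Confluent ones, with no overlap (log2 -0.94, SE 0.0995, adjusted p 5.92e-08). HDAC2 averaged 53.6 and 71.7 CPM (log2 -0.42, SE 0.108, adjusted p 0.00192), so that the HDAC1 to HDAC2 ratio of CPM had a median of 1.42 in Differentiated libraries, against 2.08 in Confluent ones. HDAC3, the enzyme of the NCoR and SMRT complexes, averaged 54.1 and 72.8 CPM (log2 -0.43, SE 0.0856, adjusted p 0.000157). With an offset for transcript length and GC content, chosen after seeing the data, HDAC1, HDAC2 and HDAC3 kept their calls at log2 fold changes of -0.73, -0.71 and -0.20, so that HDAC1 and HDAC2 then fell by nearly the same amount. HDAC8, the class I enzyme that deacetylates cohesin, did not pass, at 7.18 and 8.08 CPM (log2 -0.16, adjusted p 0.321). HDAC6, HDAC10 and HDAC11 did not pass either, with log2 fold changes between -0.29 and 0.12. The HDAC11 average covers log2 fold changes from -0.32 to 0.72 in single genotypes. In NT alone HDAC11 was higher in Differentiated than in Confluent libraries (log2 0.72, adjusted p 0.0348). That call was lost with no filter on low counts and without NT Confluent replicate 2, NT Differentiated replicate 1 or NT Differentiated replicate 2. In NT, HDAC11 was also higher in Differentiated than in Subconfluent libraries (log2 0.99, adjusted p 0.00585). HDAC11 shares 9.62% of its exon bases with its antisense gene.

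Of the 7 sirtuins, 4 rose and 2 fell. SIRT2 had 61.7, 94.8 and 123 CPM in Differentiated libraries, against 36.7, 44.8 and 56.1 CPM in Confluent ones, without overlap (log2 1.06, SE 0.134, adjusted p 6.65e-07). SIRT1, the nuclear deacetylase of p53 and histones, averaged 8.93 CPM in Differentiated and 6.06 CPM in Confluent libraries (log2 0.57, SE 0.155, adjusted p 0.00289). SIRT7, a nucleolar sirtuin that deacetylates H3K18, rose by 0.64 log2 units (SE 0.127, adjusted p 0.000157) while SIRT6, the chromatin sirtuin that deacetylates H3K9, fell by 0.41 (SE 0.139, adjusted p 0.0131). The SIRT6 to SIRT7 ratio of CPM, which is not adjusted for length, had a median of 0.841 in Differentiated and 1.84 in Confluent libraries, with the lowest and highest values at 0.584 and 1.14 in Differentiated and at 1.01 and 3.25 in Confluent libraries.

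The SIRT6 call was lost without KAT2B_KD Differentiated replicate 2. It was also lost with NT left out of the average (adjusted p 0.107) and with the offset for length and GC content (log2 -0.20, adjusted p 0.151). SIRT3, the main mitochondrial deacetylase, fell by 0.43 log2 units (SE 0.139, adjusted p 0.00946). Its call was also lost with that offset (log2 -0.26, adjusted p 0.087) and with NT left out of the average (0.0693). By the transcript models SIRT3 shares 7.78% of its exon bases with PSMD13 on the opposite strand. SIRT5, which removes succinyl and malonyl groups in mitochondria, did not pass (log2 -0.29, adjusted p 0.106). SIRT4 had few reads, 77 in the 8 Differentiated libraries summed, against 23 in the 8 Confluent ones. Its group means averaged 0.832 and 0.206 CPM, and its call (adjusted p 0.00441) was lost without KAT2B_KD Differentiated replicate 1, at an adjusted p of 0.129.

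Among the 6 readers, 1 rose and 2 fell. BPTF, the subunit of the NURF remodelling complex that reads H3K4me3 and acetylated H4, averaged 32.4 CPM in Differentiated and 24.3 CPM in Confluent libraries (log2 0.43, SE 0.146, adjusted p 0.0139). That call was lost with the offset for length and GC content (log2 0.21, adjusted p 0.0552) and with NT left out of the average (log2 0.34, adjusted p 0.0842). BRD9, a subunit of the non-canonical BAF complex, averaged 10.7 and 18.5 CPM and fell by 0.81 log2 units (SE 0.101, adjusted p 6.04e-07). BRD3, a BET protein, averaged 10.9 and 14.9 CPM and fell by 0.44 log2 units (SE 0.104, adjusted p 0.000838). Its paralog BRD2 had 511 and 502 CPM on average and did not pass (log2 0.05, SE 0.0987, adjusted p 0.688). BRD7, of the PBAF complex, and BRPF1, the scaffold of the KAT6A and KAT6B complexes, had log2 fold changes of -0.19 and -0.20 and did not pass. For BRD7, 40.6% of exon bases are shared with ADCY7 on the opposite strand.

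**Figure D3:**
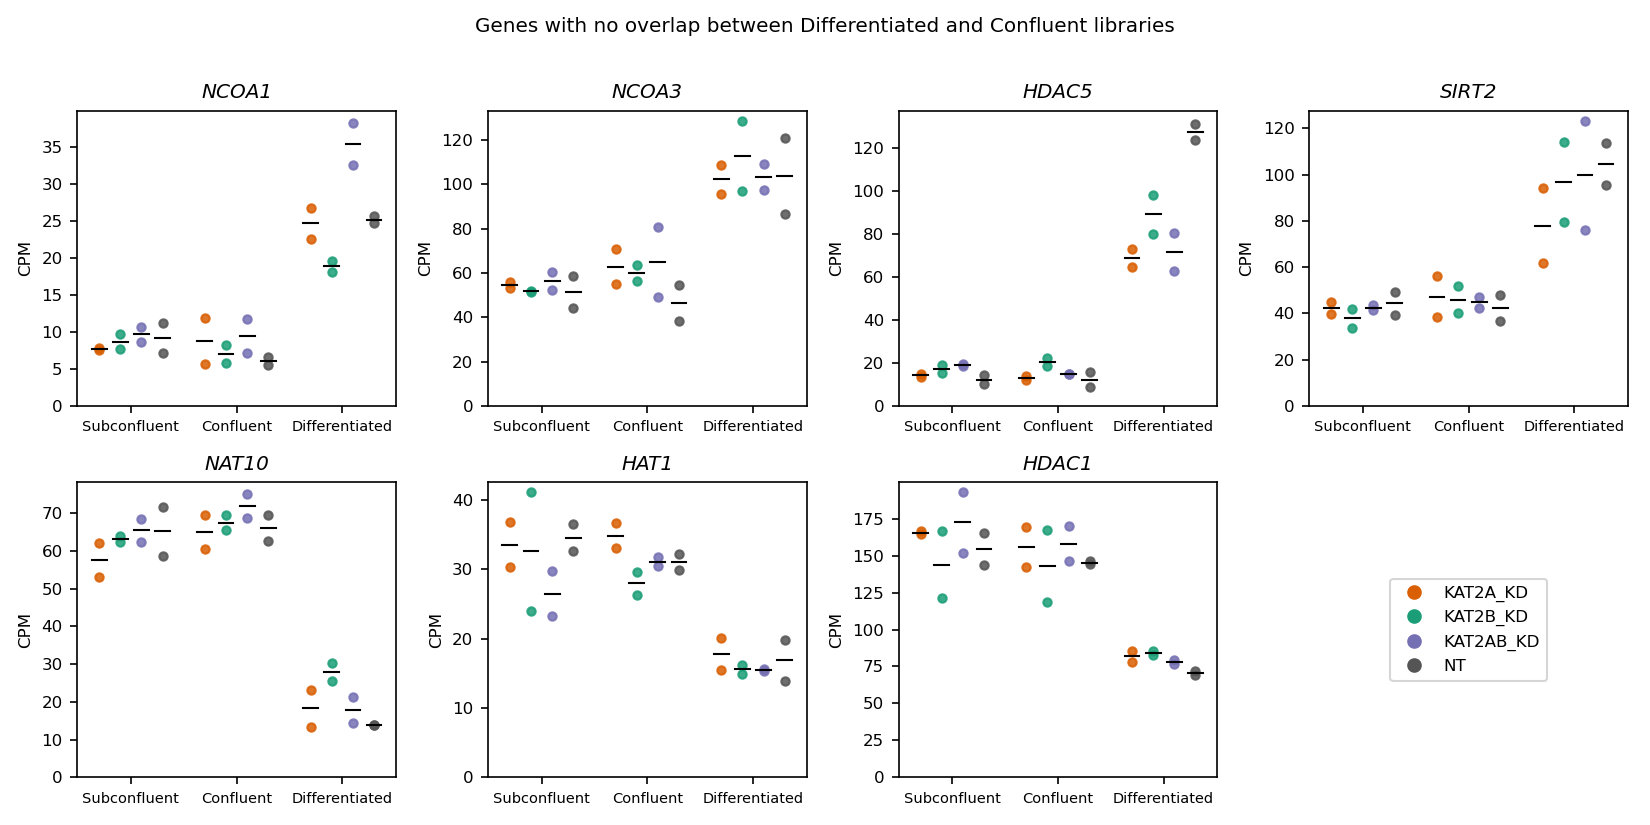
CPM of the 7 genes whose Differentiated and Confluent libraries did not overlap, by stage (x axis) and genotype (colour). Each point is a library and each bar the mean of 2 libraries. NCOA1, NCOA3, HDAC5 and SIRT2 are higher and NAT10, HAT1 and HDAC1 are lower at the Differentiated stage in each genotype.

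Within single genotypes, Differentiated against Confluent libraries, 12 of the 36 genes passed in KAT2A_KD (6 higher and 6 lower, beside 43.1% of all genes, 21.4% higher and 21.7% lower), 10 in KAT2B_KD (5 and 5, beside 39.6%, 19.3% and 20.3%), 11 in KAT2AB_KD (6 and 5, beside 46.2%, 22.6% and 23.6%) and 16 in NT (8 and 8, beside 50.4%, 24.3% and 26.1%). These counts rest on 2 libraries a group. They dropped to 7 in KAT2A_KD without its Confluent replicate 1 or its Differentiated replicate 1, to 5 in KAT2B_KD without its Confluent replicate 1, and to 10 in NT without Confluent replicate 1, Differentiated replicate 1 or Differentiated replicate 2. The direction of change was the same in all 4 genotypes for 22 of the 36 genes, and for 21 of the 23 called on average. HDAC9 and SIRT6 were the 2 exceptions, and HDAC9 had a log2 fold change of 0.19 in KAT2AB_KD, where its libraries held 7.15 to 7.17 CPM at the Differentiated and 5.62 to 6.93 CPM at the Confluent stage. The 7 genes without overlap were also the ones that passed in every genotype, which 27.6% of all genes did, and 19 of 36 passed in at least 1 genotype, beside 64.5%. HDAC5, NAT10 and NCOA1 passed in each genotype separately and under each of 11 alternatives in each. In NT, Differentiated against Subconfluent cultures gave 6 higher and 8 lower genes of the 36, 38.9% beside 50.4% of all genes, of which 24% were higher and 26.5% lower.

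Averaged over the 4 genotypes, 2 of 36 genes were lower in Confluent than in Subconfluent cultures and 0 were higher, 5.56% beside 9.15% of all genes, of which 4.43% were lower and 4.72% higher. The share is near the background, and 4 genes passed with no filter on low counts, with DESeq2 or with the compared groups alone. HDAC9 had 5.62, 7.73 and 12.1 CPM (lowest, median and highest) in Confluent libraries, against 7.83, 12.7 and 19.7 CPM in Subconfluent ones (log2 -0.55, SE 0.12, adjusted p 0.00555). BRD3 had 11.6, 14.7 and 18.2 CPM in Confluent libraries, against 16.4, 20 and 23.1 CPM in Subconfluent ones (log2 -0.42, SE 0.102, adjusted p 0.0114). Both pairs of groups overlapped. HDAC4 and SIRT7 came next, with log2 fold changes of -0.65 and 0.41 and an adjusted p of 0.0539 each. Both HDAC9 and BRD3 were thus lower at each later stage on average, at 14.9 CPM in Confluent and 10.9 CPM in Differentiated libraries for BRD3.

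In this comparison log2 fold changes fell with transcript length over 13059 genes (Spearman's rho -0.351, across genes, which are not independent replicates), and the transcripts used for HDAC9 and BRD3 have 9705 and 5652 bases. With an offset for length and GC content, chosen after seeing the data, BRD3 kept its call (adjusted p 0.0346) and HDAC9 did not (log2 -0.39, adjusted p 0.0658). With NT left out of the average HDAC9 kept its call (adjusted p 0.0158) and BRD3 did not (log2 -0.36, adjusted p 0.0854). Within each genotype 0 of the 36 genes passed between Confluent and Subconfluent cultures by edgeR's test. The background was 0.235% of all genes in KAT2A_KD, 1.61% in KAT2B_KD, 0.609% in KAT2AB_KD and 0.901% in NT. An unadjusted p under 0.05 was reached in 12 of these 144 tests, and DESeq2 also called 0 in each genotype.

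Knockdown of KAT2A, of KAT2B or of both went with few differences in these genes. Of 324 tests of a gene in a knockdown against NT at 1 stage, 2 passed and 26 had an unadjusted p under 0.05. The knockdown comparisons at a stage share the same NT libraries. In KAT2A_KD, 0 of 36 genes passed at each stage, beside 0.343%, 0.647% and 1.22% of all genes at the Subconfluent, Confluent and Differentiated stage. In KAT2B_KD the counts were 0, 0 and 1, beside 0.0888%, 0.463% and 4.85%. In KAT2AB_KD they were 0, 1 and 0, beside 2.7%, 2.28% and 2.74%. DESeq2 called 1 gene, HDAC5, at the Differentiated stage in KAT2A_KD and in KAT2AB_KD, and 0 in the other comparisons listed at 0. The shares are near the background, and with 36 genes a background of a few percent amounts to about a single gene. Leaving out SIRT4, whose reads were few, log2 fold changes lay between -1.08 and 1.01.

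**Figure D4:**
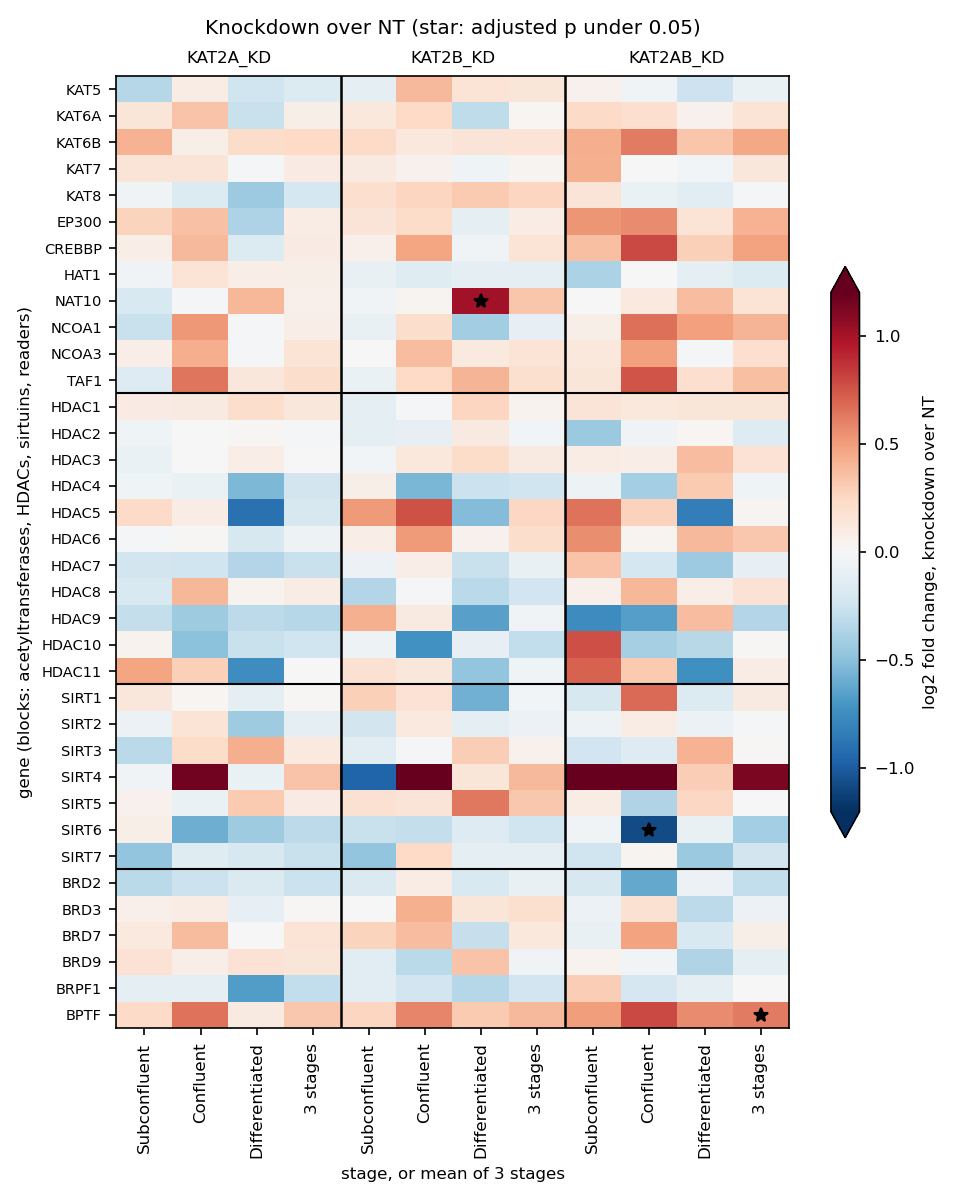
Log2 fold change of each of the 36 genes, knockdown over NT, at each stage and averaged over 3 stages, for KAT2A_KD, KAT2B_KD and KAT2AB_KD. Stars mark an adjusted p under 0.05, which NAT10, SIRT6 and BPTF reached once each. The deep colours of SIRT4 rest on at most 24 reads per group.

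NAT10 was the gene called in KAT2B_KD. At the Differentiated stage it had 25.4 and 30.4 CPM in KAT2B_KD, against 13.8 and 14.0 CPM in NT, with a log2 fold change of 1.01 (SE 0.231, adjusted p 0.0139). The KAT2B_KD libraries lay above both NT libraries, yet below the 60.5 CPM of the lowest Confluent library. The log2 fold change of NAT10 with differentiation was -1.27 in KAT2B_KD and -2.25 in NT, and the test of that difference did not pass (0.98 log2 units, SE 0.318, adjusted p 0.172). At the same stage NAT10 had 23.2 and 13.4 CPM in KAT2A_KD and 14.4 and 21.4 CPM in KAT2AB_KD, which overlapped NT in KAT2A_KD. The call was lost without KAT2B_KD Differentiated replicate 2 (adjusted p 0.0908), NT Differentiated replicate 1 (0.0955) or NT Differentiated replicate 2 (0.101), and when only the compared groups were fitted (0.0573).

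SIRT6 was the gene called in KAT2AB_KD. At the Confluent stage it had 7.19 and 8.74 CPM in KAT2AB_KD, against 19.4 and 14.2 CPM in NT, with a log2 fold change of -1.08 (SE 0.274, adjusted p 0.0412). It had 11.2 and 11.2 CPM in KAT2A_KD and 14.8 and 12.6 CPM in KAT2B_KD, so that NT held the highest library and its mean was the highest of the 12 groups. The call was lost without any single library of the pair of groups, with adjusted p values of 0.338 and 0.0892 without KAT2AB_KD replicate 1 and 2, and 0.409 and 0.06 without NT replicate 1 and 2. It was also lost with the compared groups alone (0.0632). The interferon-stimulated markers summed to 267 and 268 CPM in KAT2AB_KD, against 1349 and 1524 CPM in NT at this stage, and their part in the result was not tested. Log2 fold changes rose with transcript length in this comparison (Spearman's rho 0.257 across 13059 genes), the SIRT6 transcript being short at 1641 bases, and with the offset for length and GC content its log2 fold change was -0.78 (adjusted p 0.0958).

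HDAC5 did not pass in any knockdown. At the Differentiated stage it had 72.7 and 64.5 CPM in KAT2A_KD, 98.1 and 79.8 CPM in KAT2B_KD and 80.3 and 62.5 CPM in KAT2AB_KD, against 131 and 124 CPM in NT. All 6 knockdown libraries lay below both NT libraries. The log2 fold changes were -0.89 (SE 0.23, adjusted p 0.0618) in KAT2A_KD, -0.52 (SE 0.228, adjusted p 0.228) in KAT2B_KD and -0.83 (SE 0.229, adjusted p 0.0576) in KAT2AB_KD. The KAT2A_KD and KAT2AB_KD differences passed with DESeq2 (adjusted p 0.0111 and 0.0184), with no filter on low counts (0.0191 and 0.0221) and with a replicate block (0.0479 and 0.0406). They did not pass with RLE scaling (0.0606 and 0.062) or a filter of 1 CPM in 4 libraries (0.0578 and 0.0546). With the offset for length and GC content they did not pass either (0.153 and 0.066). With the compared groups alone KAT2A_KD passed (0.0459) and KAT2AB_KD did not (0.196). Leaving out single libraries gave log2 fold changes of -0.99 to -0.80 in KAT2A_KD and -1.01 to -0.66 in KAT2AB_KD. Neither difference passed in any of these fits, which leave a single library in a group. At the Confluent stage HDAC5 averaged 12.8 ± 1.24 CPM in KAT2A_KD, 20.5 ± 2.63 CPM in KAT2B_KD and 14.7 ± 0.0827 CPM in KAT2AB_KD, against 12.1 ± 4.96 CPM in NT (SD, n = 2 libraries each). The log2 fold changes there were 0.09, 0.76 and 0.28 and did not pass (adjusted p 0.968, 0.317 and 0.695).

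HDAC5 had Differentiated over Confluent log2 fold changes of 2.42 in KAT2A_KD, 2.12 in KAT2B_KD and 2.28 in KAT2AB_KD, against 3.39 in NT. The differences from NT were -0.98, -1.28 and -1.11 log2 units, and the lowest adjusted p of the 3 was 0.0783, in KAT2B_KD. It came to 0.0398 without NT Confluent replicate 1, which held 15.6 CPM, and to 0.32 without NT Confluent replicate 2, which held 8.61 CPM. With all libraries and no filter on low counts it was 0.0229. Over all 36 genes and 3 knockdowns, 0 of 108 such differences passed by edgeR's test and 12 had an unadjusted p under 0.05, beside 0.616%, 0.888% and 1.33% of all genes called in KAT2A_KD, KAT2B_KD and KAT2AB_KD. DESeq2 called HDAC5 in KAT2B_KD (adjusted p 0.0156) and in KAT2AB_KD (0.0477).

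**Figure D5:**
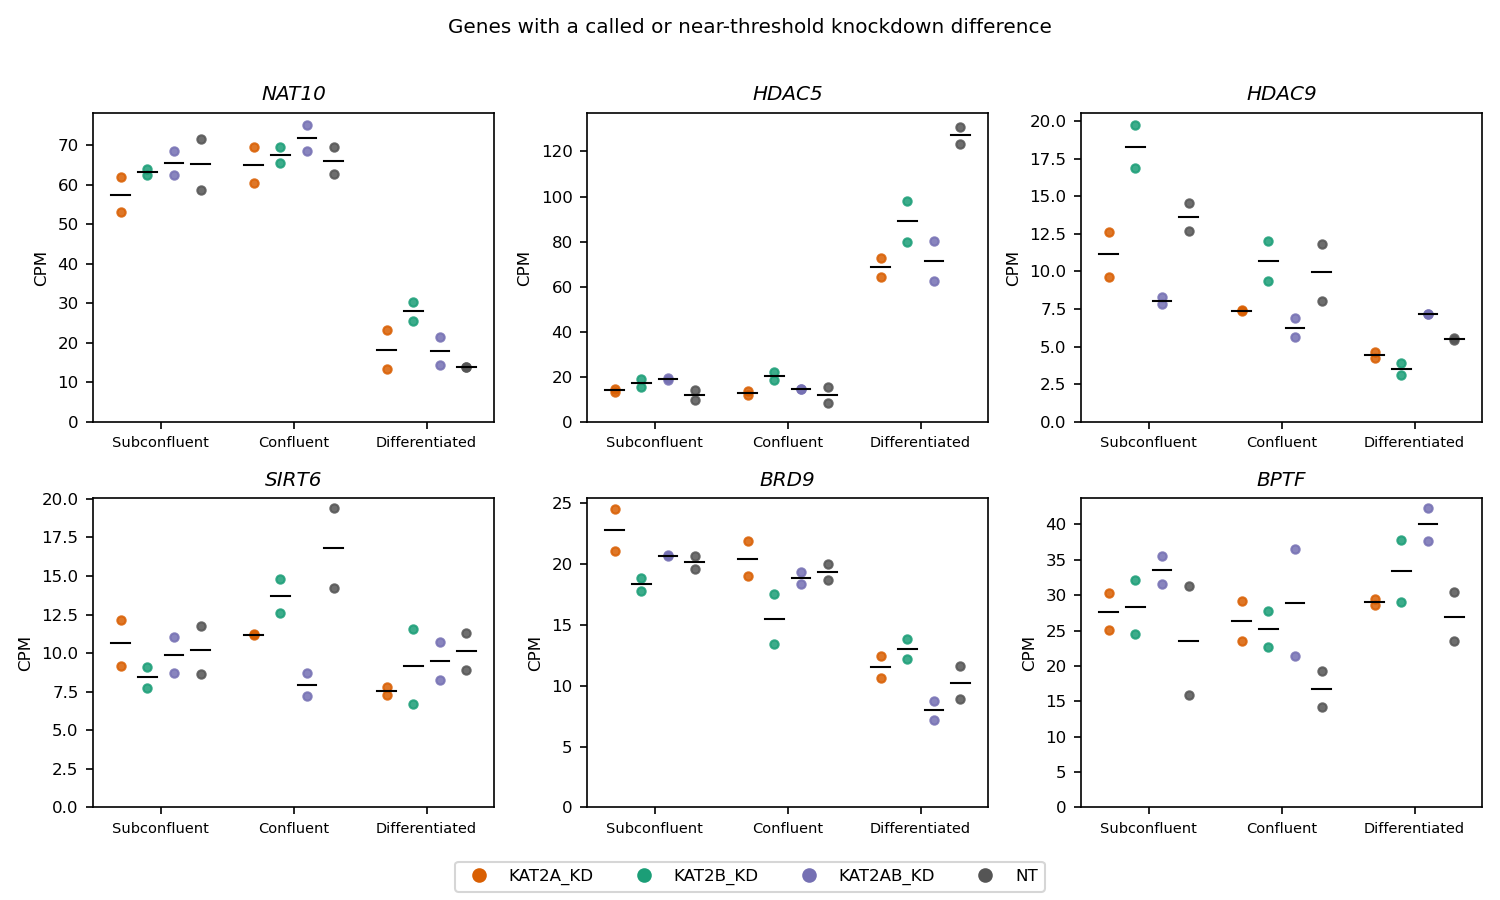
CPM of NAT10, HDAC5, HDAC9, SIRT6, BRD9 and BPTF by stage (x axis) and genotype (colour). Each point is a library and each bar the mean of 2 libraries. HDAC5 is lower in the 6 Differentiated knockdown libraries than in the NT pair, and HDAC9 is lowest in KAT2AB_KD before differentiation and highest in it afterwards.

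BPTF was the gene called in a knockdown averaged over the 3 stages. In KAT2AB_KD its libraries held 31.6 and 35.6 CPM at the Subconfluent, 36.5 and 21.4 CPM at the Confluent and 42.3 and 37.7 CPM at the Differentiated stage. In NT they held 31.3 and 15.9, 14.2 and 19.3, and 30.5 and 23.5 CPM at the same stages. Both KAT2AB_KD libraries lay above both NT libraries at each stage, although the NT replicates differed widely at the Subconfluent stage. The averaged log2 fold change was 0.62 (SE 0.168, adjusted p 0.0281), and 1 of 36 genes passed, 2.78% beside 7.48% of all genes. The call was lost on leaving out any of 7 of the 12 libraries, with adjusted p values of 0.0505 and 0.0724 without KAT2AB_KD Subconfluent replicate 1 and 2, 0.0898 without NT Subconfluent replicate 2, 0.124 without KAT2AB_KD Confluent replicate 1, 0.1 without NT Confluent replicate 1, 0.0536 without KAT2AB_KD Differentiated replicate 1 and 0.0971 without NT Differentiated replicate 2. The Confluent KAT2AB_KD library with more BPTF, replicate 1 at 36.5 CPM, was also the one with more KAT2A and KAT2B left. At the Differentiated stage the one with more BPTF, replicate 1, had less KAT2A (1.98 against 6.85 CPM) and less KAT2B (5.85 against 18.9 CPM). At the Subconfluent stage replicate 2 had more BPTF, more KAT2A (10.4 against 8.29 CPM) and less KAT2B (1.19 against 1.92 CPM). The part of the remaining KAT2A and KAT2B in the result was not tested. BPTF has the longest transcript of the 36 genes, 11292 bases, and log2 fold changes rose with length here (Spearman's rho 0.251 across genes). With the offset for length and GC content it kept its call at a log2 fold change of 0.49 (adjusted p 0.00637).

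EP300 and CREBBP, the paralogous coactivators, had averaged log2 fold changes of 0.42 and 0.48 in KAT2AB_KD over NT (SE 0.19 and 0.162) and did not pass (adjusted p 0.213 and 0.0804). With DESeq2 CREBBP passed (adjusted p 0.0463), and with no filter on low counts both did (0.0392 for EP300 and 0.0329 for CREBBP). BRD2 and HDAC9 had averaged log2 fold changes of -0.29 and -0.35 in the same comparison (adjusted p 0.139 and 0.151). BRD2 passed there with the offset for length and GC content (log2 -0.37, adjusted p 0.00567) and without KAT2AB_KD Confluent replicate 1 (0.049). At the Confluent stage alone BRD2 did not pass in KAT2AB_KD against NT (log2 -0.61, adjusted p 0.133), and it passed with DESeq2 (0.023) and with the offset (0.00492). Averaged over the stages, 0 of 36 genes passed in KAT2A_KD and in KAT2B_KD by edgeR's test, beside 1.94% and 2.42% of all genes. Of these, 3 genes in KAT2A_KD and 2 in KAT2B_KD had an unadjusted p under 0.05, and DESeq2 called 0 in both.

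Set against each other at the same stage, the knockdowns differed in 3 of 324 tests. HDAC9 was involved in 2 of them, with opposite signs. At the Subconfluent stage it had 7.83 and 8.28 CPM in KAT2AB_KD, against 19.7 and 16.9 CPM in KAT2B_KD, a log2 fold change of -1.18 (SE 0.237, adjusted p 0.00759, beside 2.61% of all genes called). At the Differentiated stage it had 7.17 and 7.15 CPM in KAT2AB_KD, against 3.93 and 3.14 CPM in KAT2B_KD, a log2 fold change of 1.02 (SE 0.259, adjusted p 0.0145, beside 11% of all genes called). In KAT2AB_KD its libraries thus stayed between 5.62 and 8.28 CPM over the 3 stages, and in KAT2B_KD they ran between 3.14 and 19.7 CPM.

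The Subconfluent difference of HDAC9 was lost without KAT2B_KD replicate 1 (adjusted p 0.107), KAT2AB_KD replicate 1 (0.101) or KAT2AB_KD replicate 2 (0.0729). The Differentiated difference was lost without KAT2B_KD replicate 2 (0.082) or KAT2AB_KD replicate 2 (0.0552), with the compared groups alone (0.259) and with the offset for length and GC content (0.0605). BRD9 at the Differentiated stage had 8.73 and 7.23 CPM in KAT2AB_KD, against 13.8 and 12.2 CPM in KAT2B_KD (log2 -0.70, SE 0.206, adjusted p 0.032). That call was lost without KAT2B_KD replicate 1 (0.181) or KAT2AB_KD replicate 2 (0.2), with no filter on low counts (0.113) and with the compared groups alone (0.326). By the transcript models BRD9 shares 7.76% of its exon bases with TRIP13 on the opposite strand.

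NCOA1 at the Differentiated stage had 32.6 and 38.3 CPM in KAT2AB_KD, against 18.1 and 19.7 CPM in KAT2B_KD, without overlap and without passing (log2 0.91, SE 0.296, adjusted p 0.0538). It passed in some alternatives, with DESeq2 (adjusted p 0.0276), no filter on low counts (0.0164), RLE scaling (0.0493) and the offset for length and GC content (0.0286). KAT2A_KD against KAT2B_KD gave 0 of 36 genes at the Subconfluent, Confluent and Differentiated stage by edgeR's test, beside 0.533%, 0.286% and 2.38% of all genes. KAT2AB_KD against KAT2A_KD also gave 0 at the 3 stages, beside 0%, 0.00635% and 0.317%. DESeq2 called 0 in these 6 comparisons, and 7 genes in each set of 3 had an unadjusted p under 0.05.

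Other parts of the acetylation machinery, in lists chosen with earlier results of these data known, changed with differentiation at shares near or above the 69.7% of all genes. Among 31 other bromodomain and YEATS readers, 14 were higher and 13 lower in Differentiated than in Confluent cultures, averaged over genotypes. ATAD2, a reader tied to S phase, fell to 7.82 CPM in Differentiated libraries, against 33.2 CPM in Confluent ones (log2 -2.07, SE 0.152). TRIM28, the corepressor of KRAB zinc finger proteins, fell by 1.60 log2 units (SE 0.0908), and SP100, a nuclear body protein, by 1.39 (SE 0.0966). Among 34 subunits of the deacetylase corepressor complexes, the partners of HDAC1, HDAC2 and HDAC3, 9 rose and 15 fell. KDM1A, the demethylase of CoREST, and MTA2, of NuRD, fell by 1.48 and 1.44 log2 units (SE 0.0791 and 0.0797). TBL1X, of the NCoR and SMRT complexes with HDAC3, rose to 12.2 CPM in Differentiated libraries, against 1.38 CPM in Confluent ones. The size of that rise rests on few reads in NT, 6 counts in its Confluent pair, and it differed between KAT2AB_KD and NT by -3.62 log2 units (SE 0.658, adjusted p 0.00593).

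Among 24 subunits of the complexes of the MYST acetyltransferases, 8 rose and 12 fell. ING4, a reader of H3K4me3 in KAT7 complexes, rose by 1.48 log2 units (SE 0.114). MRGBP, of the KAT5 complex, and JADE2, a scaffold of KAT7 complexes, fell by 1.43 and 2.0 (SE 0.128 and 0.185). Among 15 genes that supply or use acetyl-CoA and NAD, 3 rose and 8 fell. NAMPT, the rate-limiting enzyme of NAD salvage on which sirtuins depend, rose to 214 CPM in Differentiated libraries, against 52.1 CPM in Confluent ones (log2 2.02, SE 0.0848). PARP1, a main consumer of NAD, fell to 13.6 CPM, against 88.3 CPM (log2 -2.74, SE 0.0946), and ACSS2, which makes acetyl-CoA from acetate, rose by 1.27 log2 units (SE 0.102). All of these named changes had an adjusted p under 0.05 by edgeR's test.

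ZMYND8, a bromodomain reader of the other list, was higher than NT in each knockdown over the 3 stages, with averages of 63.0 CPM in KAT2A_KD, 58.3 CPM in KAT2B_KD and 73.8 CPM in KAT2AB_KD, against 41.7 CPM in NT. The log2 fold changes were 0.61, 0.51 and 0.78 (SE 0.108 each, adjusted p 0.00404, 0.0132 and 0.000107). PARP1 had averaged log2 fold changes of 0.42, 0.41 and 0.37 over NT in the same order (adjusted p 0.0385, 0.0398 and 0.0354). TBL1X averaged 1.69 log2 units higher in KAT2B_KD and 1.81 higher in KAT2AB_KD than in NT over the stages (SE 0.266 and 0.259, adjusted p 0.00104 and 0.000139). Its mean CPM over the stages were 7.42 and 6.08, against 4.29 in NT. Part of these log2 averages rests on the Confluent stage, with 1.57 and 2.77 CPM, against 0.232 CPM from few reads in NT. The KAT2AB_KD difference was uneven over the stages, as its differentiation change differed from that of NT by -3.62 log2 units. SP110, an interferon-inducible reader, was lower at the Confluent stage in the 3 knockdowns, at 13.7, 13.9 and 17.04 CPM, against 32.8 CPM in NT (adjusted p 0.0161, 0.022 and 0.0441), where the interferon-stimulated markers were also highest in NT.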

How the data were processed

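RNA of 24 nTERT-1 libraries was made with polyA selection and a directional kit, per the labels' protocols. The authors deposited raw read counts per gene symbol. FastQC, Bowtie2, featureCounts, DESeq2 and hg19 are named in the submitters' processing notes, and their versions, the strand setting and the handling of multimapping reads are not given in the sources used here. Counts of genes that overlap on opposite strands are therefore uncertain. One set of per-sample values, 1 column, matched no sample and was not used.

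The deposited counts were fitted in edgeR 4.0.16 (R 4.3.3, limma 3.58.1) by quasi-likelihood with TMM scaling, filterByExpr by group and 12 groups in 1 fit, which leaves 12 residual degrees of freedom. P-values were adjusted by Benjamini-Hochberg over 15757 genes in each of 35 comparisons, and an adjusted p under 0.05 was called. Alternatives were DESeq2 1.42.0, RLE scaling, no filter, a filter of 1 CPM in 4 libraries, the compared groups alone, a replicate block and leaving out each library. An offset for transcript length and GC content (GENCODE 29) and averages without NT were added after seeing the data. The averages without NT left NT out of the average only, and its libraries stayed in the fit. On simulated counts with 2 libraries a group, the Confluent KAT2A_KD against NT comparison recovered 44% of changes of 1 log2 unit and 95% of changes of 2. Whether same-numbered libraries deviate together was mixed (correlation of deviations -0.347 to 0.506, median 0.132, over 0.1 in 38 of 66 pairs of groups). The numbers were not taken as pairs, since that would need every pair over 0.1. No replicate pair was a duplicate (chi-square over degrees of freedom 12.2 to 67.1).

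The members and lists were chosen with earlier results of these data known. All 36 genes are named, at most 12 per comparison in full, and from each other list the up to 3 called genes of lowest p in the stage averages and up to 2 elsewhere.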

Additional observations from a re-analysis of the deposited data

How the results depend on the processing

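Differentiated against Confluent, averaged over genotypes, called between 20 and 23 of the 36 genes under all alternatives, with 20 without NT and 22 with the length and GC offset. The genes behind these counts differed. With the offset BPTF, SIRT3 and SIRT6 were lost, and KAT5 (log2 0.28, adjusted p 0.00546) and BRD7 (log2 -0.27, adjusted p 0.0167) were gained. With NT left out of the average BPTF, EP300, SIRT3 and SIRT6 were lost and BRD7 was gained (log2 -0.33, adjusted p 0.0167). No named result changed sign. Confluent against Subconfluent, averaged, called 4 genes with no filter, DESeq2 or the compared groups alone, against 2. With no filter, 1 gene was called in KAT2A_KD and in KAT2AB_KD against NT at the Differentiated stage, 2 in KAT2AB_KD against NT at the Confluent stage, 3 in KAT2AB_KD against NT over the stages and 1 for the difference in differentiation change of KAT2B_KD. DESeq2 gave 1, 1, 2, 2 and 1 for these, 1 for the difference in differentiation change of KAT2AB_KD and 1 for Confluent KAT2AB_KD against KAT2B_KD. With the compared groups alone the counts were 1 for Differentiated KAT2A_KD and 0 for Differentiated KAT2B_KD, Confluent KAT2AB_KD and 3-stage KAT2AB_KD against NT, and 0 for Differentiated KAT2AB_KD against KAT2B_KD. The length and GC offset gave 2 for 3-stage KAT2AB_KD against NT and 1 for Confluent KAT2AB_KD against KAT2B_KD. The cause of these shifts was not tested. The replicate numbers were not taken as pairs, because 38 of 66 pairs of groups and not all exceeded a correlation of 0.1. With a replicate block, 1 gene was called in Differentiated KAT2A_KD and in Differentiated KAT2AB_KD against NT, against 0 without it, and 23 for the averaged differentiation change. Leaving out single libraries gave 0 to 2 calls for 3-stage KAT2AB_KD against NT, 0 to 0 for Confluent KAT2AB_KD against NT, 0 to 1 for Differentiated KAT2B_KD against NT, 0 to 1 for Subconfluent and Confluent KAT2AB_KD against KAT2B_KD, 1 to 2 for Differentiated KAT2AB_KD against KAT2B_KD, and 0 to 1 for the differences in differentiation change of KAT2B_KD and KAT2AB_KD. Within genotypes, Differentiated against Confluent, it gave 7 to 9 in KAT2A_KD, 5 to 11 in KAT2B_KD, 9 to 13 in KAT2AB_KD and 10 to 14 in NT, and 12 to 16 for Differentiated against Subconfluent in NT. The averages gave 2 to 3 for confluence and 21 to 23 for differentiation. With 2 libraries a group, a change of 1 log2 unit often goes uncalled, and SIRT4, at 0 to 18 counts a library, allows no estimate per genotype.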
